A study of Mus musculus with 22 samples.

Results

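The genes described here are the 5 Rel/NF-kB subunits with their regulators and 20 classical target genes, 38 genes in all out of the 52636 listed in the count table of a mouse lymphoma study. They were picked as a named list and found by gene symbol, and all 38 had a row. The libraries were made from the 3′ end of messenger RNA, and levels are CPM, counts scaled to a common library total, so they compare samples and not genes of different length. There were 22 libraries from 15 mice of mixed 129/C57Bl6 background, and ages are not given. MCL-like primary tumours (4 mice) and Ccnd2 non-MCL primary tumours (3 mice) share the genotype R26-Ccnd2tg/tg with p53fl/fl and Mb1Cretg/+. They differ in the immunophenotype label, MCL being mantle cell lymphoma. The p53-only primary tumours (6 mice, 7 libraries) carry p53fl/fl and Mb1Cretg/+ without the Ccnd2 transgene and are all labelled non-MCL. The floxed p53 alleles and the Mb1 (Cd79a) driven Cre, which acts from early B cell stages on, are thus common to every group, and no wild-type B cells are among the samples. MCL-like transplants (6 libraries from 4 primary mice, 3 of which also gave a primary library) and Ccnd2 non-MCL transplants (2 libraries from 1 mouse with no primary library) were grown in immunodeficient NSG hosts. The titles of the 6 MCL-like transplants say non-MCL while their immunophenotype field says MCL-like, and the field was followed.

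NF-kB is a family of dimeric transcription factors held inactive in the cytoplasm. In the canonical branch, signals from the B cell receptor, Toll-like receptors or TNF receptors reach the IKK complex, which marks IkB inhibitors for destruction and frees dimers of p50 (Nfkb1) with RelA or c-Rel. In the non-canonical branch, receptors such as BAFF-R and CD40 stabilise the kinase NIK (Map3k14), which leads to processing of p100 (Nfkb2) and release of p52 with RelB. NIK is otherwise degraded through Traf3, Traf2 and the ubiquitin ligases Birc2 and Birc3. Many inhibitors are themselves NF-kB targets, so the pathway restrains itself, and in human mantle cell lymphoma lesions of both branches are known.

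Promoter sequence was used to show which members carry a kappa-B element, the DNA motif that NF-kB dimers bind, close to their start. Of the 38 members, 31 had an entry among RefSeq promoters of GRCm38.p6. The 250 bases before each start were searched on both strands. The degenerate 10-base kappa-B consensus occurred in 13 of the 31 member genes (41.9%), against 4.46% of all 27025 genes with an entry. Another form was the letters GGG, any 2 bases, then TTTCC, which overlaps the consensus without being contained in it. It occurred in 7 of 31 (22.6%), against 1.65% of all genes. A match is a run of letters and not evidence of binding, and absence from this window says nothing about binding elsewhere. The stretches below are written in the direction of transcription with the matches in capitals, and overlapping matches run together. Nfkbid, Nfkbie and Ebi3 are shown because they were called in the comparisons below, Nfkbia because it is the best known self-limiting target, Nfkb2, Rel and Ltb because every MCL-like primary lay above every Ccnd2 non-MCL primary for them, and Traf3 because 1 mouse had almost none of its RNA.
Nfkbid (chr7:30422156-30422274, plus strand): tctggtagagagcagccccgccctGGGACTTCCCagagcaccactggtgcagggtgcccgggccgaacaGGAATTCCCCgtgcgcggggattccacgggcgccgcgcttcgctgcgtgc
Nfkbie (chr17:45555554-45555643, plus strand): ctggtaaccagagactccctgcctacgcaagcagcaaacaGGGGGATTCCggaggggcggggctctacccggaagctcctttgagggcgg
Ebi3 (chr17:55952539-55952622, plus strand): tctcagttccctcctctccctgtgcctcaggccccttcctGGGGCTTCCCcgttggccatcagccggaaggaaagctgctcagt
Nfkbia (chr12:55492648-55492716, minus strand): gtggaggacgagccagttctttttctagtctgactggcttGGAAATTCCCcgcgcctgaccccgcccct
Nfkb2 (chr19:46304658-46304736, plus strand): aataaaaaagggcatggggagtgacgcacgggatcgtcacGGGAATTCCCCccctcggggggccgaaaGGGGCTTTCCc
Rel (chr11:23771011-23771101, minus strand): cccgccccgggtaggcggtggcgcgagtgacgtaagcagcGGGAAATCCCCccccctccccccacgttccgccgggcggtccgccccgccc
Ltb (chr17:35194380-35194469, plus strand): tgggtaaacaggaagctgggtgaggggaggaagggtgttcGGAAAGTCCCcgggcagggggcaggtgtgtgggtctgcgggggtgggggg
Traf3 (chr12:111166320-111166369, plus strand): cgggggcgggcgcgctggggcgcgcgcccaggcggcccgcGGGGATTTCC

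Library totals were 2693399 to 8146613 counts, so 1 count was worth a fraction of a CPM and low members carry large counting error. All groups held B cell transcripts, with the 6 B cell markers summing to 2921 to 6113 CPM in MCL-like mice, against 3874 to 5855 CPM in Ccnd2 non-MCL mice and 1269 to 5559 CPM in p53-only mice. Markers of B cell stage and of other cells differed between the groups to an uneven extent, and several ranges overlapped. Early B cell markers (Vpreb1, Rag1 and 4 others), which mark a stage of the B lineage, summed to 1.78 to 260 CPM in MCL-like primaries. They summed to 2891 to 7121 CPM in Ccnd2 non-MCL mice and 8.34 to 6754 CPM in p53-only primaries. The MCL-like and Ccnd2 non-MCL ranges were fully apart, so label and B cell stage cannot be told apart in that comparison. T cell markers summed to 120 to 274 CPM in MCL-like mice, against 8.39 to 31.4 CPM in Ccnd2 non-MCL mice and 2.2 to 255 CPM in p53-only mice, and no T cell or early B cell marker was at 0 in a whole group. In MCL-like replicate 1 the T cell sum was mostly Cd28 (212 of 274 CPM), and the other T cell markers there were mixed. Cd3d, Cd3e, Cd8a and Trac were below the other 3 MCL-like primaries, with Cd3e at 2.38 CPM, against 17.5 to 34.8 CPM. Cd4 was above them at 27.1 CPM, and Cd3g lay among them at 11.9 CPM. Macrophage and monocyte markers summed to 570 to 1278, 399 to 1633 and 205 to 1461 CPM in these 3 groups, in the same order. Dendritic cell markers summed to 51.3 to 89.2, 17.8 to 78.4 and 7.42 to 139 CPM, and erythroid markers to 22930 to 110300, 3132 to 32050 and 88.7 to 38040 CPM. The part of B cell stage and of these other cells in the results below was not tested. In bulk samples fewer cells of a type and less RNA per cell cannot be told apart. NSG hosts lack their own lymphocytes, but other host cells can be in the transplants.

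**Figure D1:**
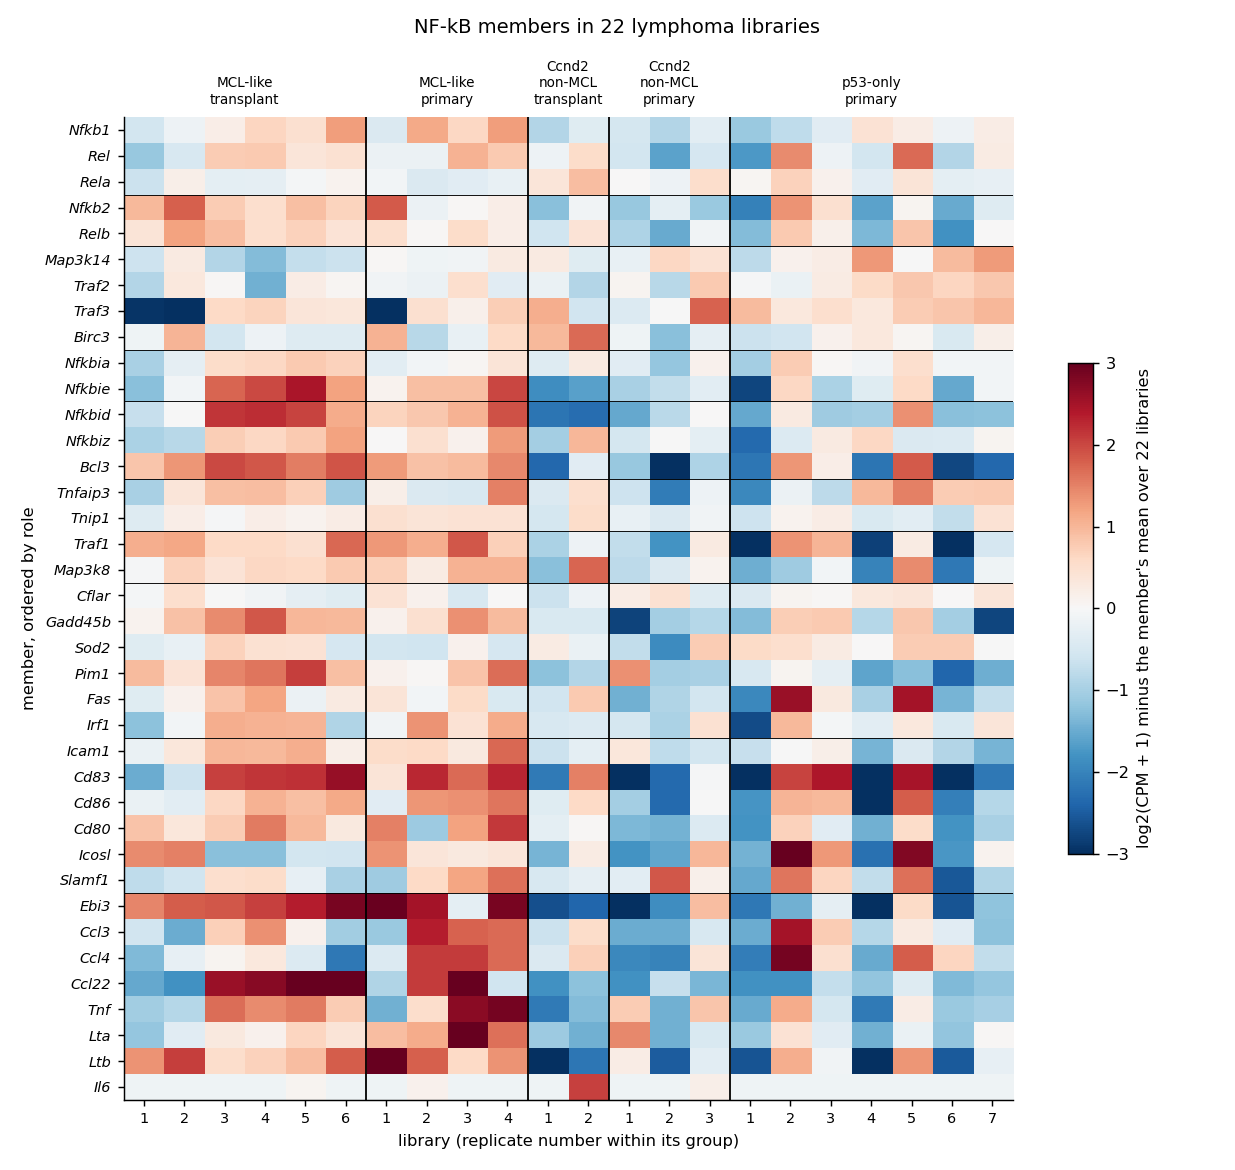
Heat map of all 38 members (rows, ordered by role) in 22 libraries (columns, by group and replicate number). Colour is log2(CPM + 1) minus the member's mean over the 22 libraries, red above and blue below it, and the colour scale ends at 3 log2 units either way. Most rows are redder in MCL-like primaries and transplants, Traf3 is dark blue in MCL-like primary replicate 1 and transplant replicates 1 and 2, and p53-only replicates 2 and 5, which come from 1 mouse, are red for many members.

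The canonical subunit gene Nfkb1 (ENSMUSG00000028163, GRCm38 chromosome 3, 135584655 to 135691547) rose in MCL-like primaries relative to all non-MCL primaries. It measured 49.96, 152, 105 and 163 CPM in MCL-like replicates 1 to 4. Ccnd2 non-MCL replicates 1 to 3 had 47.2, 36.6 and 54.1 CPM, and p53-only mice had 31.2 to 92.8 CPM with a median of 57.3 CPM. MCL-like replicates 2, 3 and 4 lay above all 9 non-MCL mice, while replicate 1 lay among them. The log2 fold change was 1.13 (SE 0.29, adjusted p = 0.0375, edgeR quasi-likelihood test with Benjamini-Hochberg adjustment over all genes). Against each non-MCL group alone it was 1.45 for Ccnd2 non-MCL (adjusted p = 0.103) and 0.998 for p53-only (adjusted p = 0.0698), and neither passed. A same-strand transcript, Gm43430, overlaps Nfkb1 and had 1762 counts over all libraries against 7171 for Nfkb1, and how the submitters' counting divided such reads is not given in the sources used here.

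Rel, which encodes c-Rel, the subunit most restricted to lymphoid and myeloid cells (chromosome 11, 23736847 to 23770970), was at 47.0, 46.8, 111 and 92.2 CPM in MCL-like replicates 1 to 4. Ccnd2 non-MCL mice had 36.4, 16.8 and 37.2 CPM, all below the MCL-like range, and p53-only mice had 15.5 to 155 CPM with a median of 42.03 CPM. The highest of all 13 primary mice was the p53-only mouse that gave replicates 2 and 5. No comparison passed, with log2 fold changes of 1.41 against Ccnd2 non-MCL (SE 0.65, adjusted p = 0.289) and 0.43 against p53-only (SE 0.52, adjusted p = 0.621). Rela, the partner of p50 in the most widespread NF-kB dimer (chromosome 19, 5637483 to 5648130), was the subunit with a negative estimate. It measured 79.1, 62.5, 66.5 and 71.7 CPM in MCL-like primaries. In Ccnd2 non-MCL primaries it was at 85.4, 75.8 and 122 CPM, and in p53-only primaries at 66.2 to 128 CPM with a median of 79.4 CPM. The groups overlapped, and its log2 fold changes were -0.29 (adjusted p = 0.683) and -0.21 (adjusted p = 0.645) against Ccnd2 non-MCL and p53-only primaries.

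Both non-canonical subunit genes had higher means in MCL-like primaries without passing the test. Nfkb2 (chromosome 19, 46304320 to 46312385) had 106, 25.5, 29.8 and 33.6 CPM in MCL-like replicates 1 to 4, against 12.6, 23.4 and 12.9 CPM in Ccnd2 non-MCL mice and 6.34 to 60.5 CPM (median 15.7) in p53-only mice. All 4 MCL-like mice exceeded all 3 Ccnd2 non-MCL mice, and replicate 1 was the highest of the 13 primaries. The log2 fold changes were 1.77 (SE 0.82, adjusted p = 0.293) and 1.12 (SE 0.64, adjusted p = 0.275). Relb (chromosome 7, 19606217 to 19629438) had 40.7, 28.9, 42.1 and 32.5 CPM in MCL-like mice, against 14.5, 9.29 and 26.2 CPM in Ccnd2 non-MCL mice and 7.38 to 50.4 CPM (median 19.7) in p53-only mice. Its MCL-like and Ccnd2 non-MCL values did not overlap either, and the log2 fold changes were 1.26 (SE 0.62, adjusted p = 0.318) and 0.74 (SE 0.50, adjusted p = 0.352). Taking canonical and non-canonical subunits side by side against all non-MCL primaries, the log2 fold changes were 1.13, 0.69 and -0.23 for Nfkb1, Rel and Rela, and 1.30 and 0.89 for Nfkb2 and Relb. No test of the 2 branches against each other was made.

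**Figure D2:**
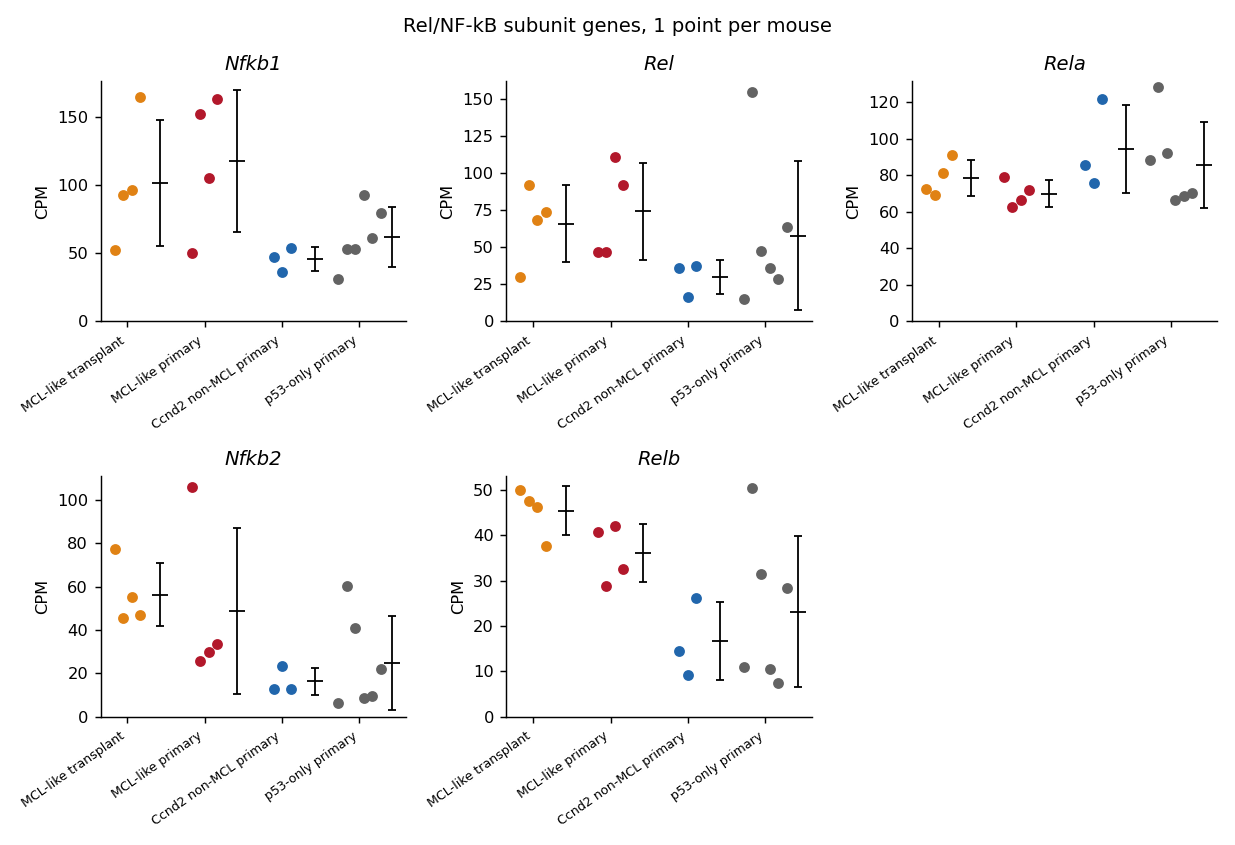
Levels of the 5 subunit genes in CPM (vertical axes, from 0), 1 point per mouse, in MCL-like transplants (4 mice), MCL-like primaries (4), Ccnd2 non-MCL primaries (3) and p53-only primaries (6). Bars are the mean and SD over mice. Nfkb1 exceeds 100 CPM in 3 of 4 MCL-like primaries and in no non-MCL primary, and Rela is no higher in MCL-like tumours than in the others.

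The genes that set the level of NIK gave no call, and most had estimates below 0. Map3k14 itself was at 20.4 ± 2.67 CPM (SD, n = 4) in MCL-like primaries, against 25.2 ± 7.29 CPM (n = 3) in Ccnd2 non-MCL mice and 32.9 ± 16.6 CPM (n = 6) in p53-only primaries. Traf2 ranged over 9.67 to 18.04 CPM in MCL-like mice, 6.59 to 22.1 CPM in Ccnd2 non-MCL mice and 12.2 to 22.8 CPM in p53-only mice. Birc3, which encodes cIAP2 and is also a target, was at 68.9 ± 37.7 CPM in MCL-like mice, against 39.4 ± 14.8 CPM in Ccnd2 non-MCL mice and 51.7 ± 13.9 CPM in p53-only mice. Of these 4 genes with Traf3, 0 were called by edgeR, DESeq2 or limma-voom, 0 had an unadjusted p under 0.05 in edgeR, and only Birc3 had a positive log2 fold change against all non-MCL primaries (0.66, adjusted p = 0.239).

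Traf3, the adaptor that brings NIK to its degradation (chromosome 12, 111166370 to 111267153), was almost absent from 1 MCL-like mouse and from the transplants of that tumour. MCL-like primary replicate 1, a mesenteric lymphoma, had 2.08 CPM, and replicates 2, 3 and 4 had 51.7, 41.2 and 62.1 CPM. The 2 transplant libraries grown from the tumour of replicate 1 had 3.96 and 2.83 CPM, and the other 4 MCL-like transplant libraries had 47.3 to 59.0 CPM. Ccnd2 non-MCL primaries had 27.5, 36.6 and 129 CPM and p53-only mice 46.1 to 74.4 CPM. The mouse with little Traf3 RNA had the highest Nfkb2 of the 13 primaries, and its transplants had 58.0 and 102 CPM of Nfkb2, against 41.6 to 55.4 CPM in the other MCL-like transplant libraries. It also had the highest Birc3 of the primaries at 114 CPM, with 50.5 and 113 CPM in its transplants. This mouse was singled out after its values were seen. The counts come from the 3′ end of the transcript, so they do not report on the rest of the Traf3 gene.

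**Figure D3:**
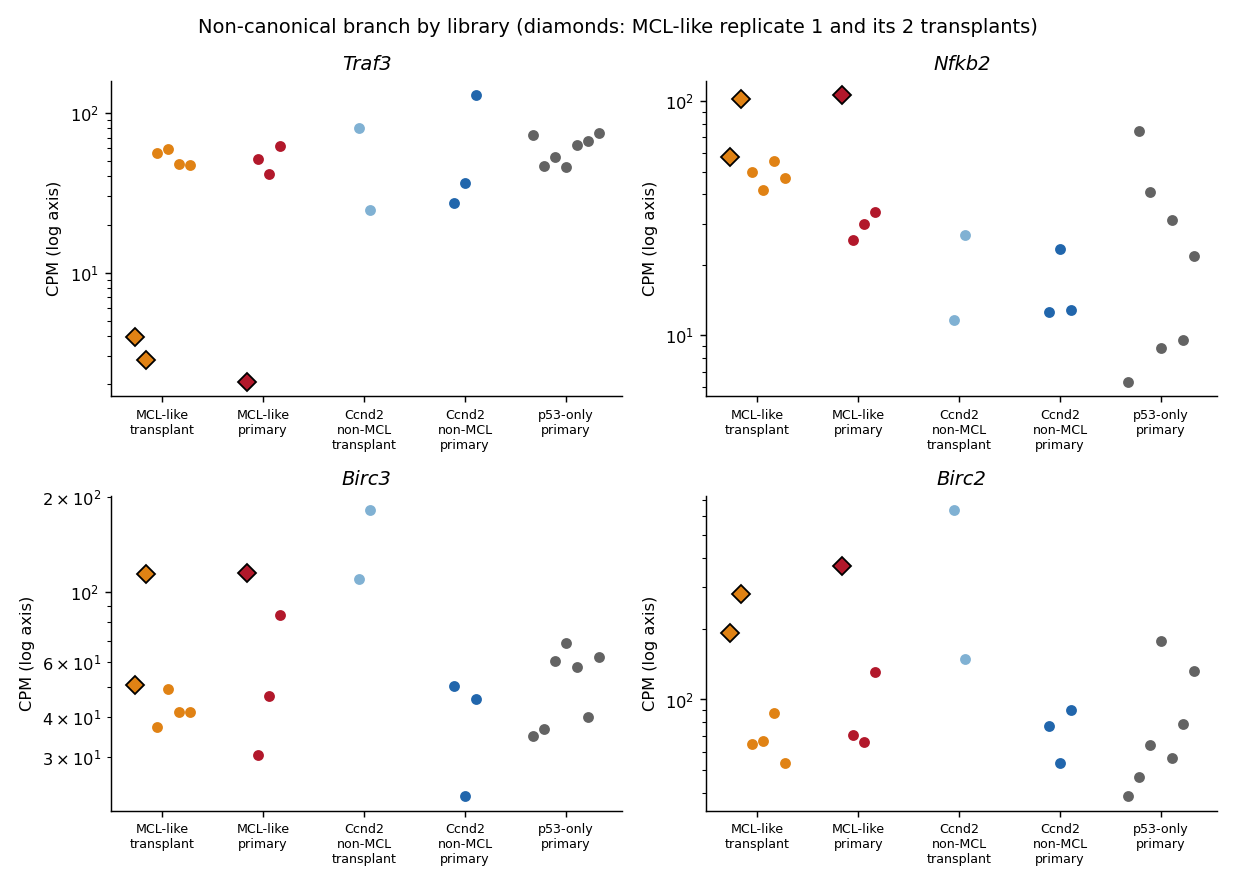
Traf3, Nfkb2, Birc3 and Birc2 in every library, in CPM on log axes, by group. Diamonds mark MCL-like primary replicate 1 and its 2 transplants, circles the other libraries. The diamonds lie under 5 CPM for Traf3, where all other libraries exceed 20 CPM, and include the highest MCL-like values of Nfkb2, Birc3 and Birc2.

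Among the inhibitors, the nuclear IkB protein gene Nfkbid and the cytoplasmic inhibitor gene Nfkbie rose in MCL-like primaries. Nfkbid encodes IkBNS, which in mice is needed for B1 cells and for B cell responses to T-independent antigens (chromosome 7, 30421732 to 30428746). It measured 44.3, 49.4, 58.2 and 107 CPM in MCL-like replicates 1 to 4, against 8.91, 15.3 and 27.7 CPM in Ccnd2 non-MCL mice and 8.88 to 46.4 CPM (median 11.9) in p53-only mice. All MCL-like mice exceeded 8 of the 9 non-MCL mice, the exception being the p53-only mouse of replicates 2 and 5. The log2 fold change was 1.96 against all non-MCL primaries (SE 0.41, adjusted p = 0.0159) and 1.94 against p53-only primaries (SE 0.47, adjusted p = 0.031). Against Ccnd2 non-MCL primaries it was 1.99 (SE 0.60, adjusted p = 0.124) and was not called. Against all non-MCL primaries Nfkbid was called in 23 of 25 alternatives, and the other 4 called members in 16 to 18.

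Nfkbie encodes IkB-epsilon, an inhibitor made in response to NF-kB (chromosome 17, 45555703 to 45563169). MCL-like mice had 24.4, 43.5, 43.4 and 94.6 CPM, against 11.1, 13.2 and 17.9 CPM in Ccnd2 non-MCL mice and 2.54 to 35.1 CPM (median 14.3) in p53-only mice. The MCL-like values lay above all Ccnd2 non-MCL values and overlapped the p53-only range through replicate 1. The log2 fold change against all non-MCL primaries was 1.80 (SE 0.46, adjusted p = 0.0361), and it was 1.93 and 1.74 against Ccnd2 non-MCL (adjusted p = 0.162) and p53-only primaries (adjusted p = 0.0619). Nfkbia, the main inhibitor IkB-alpha, had overlapping levels, at 455 ± 92.6 CPM in MCL-like mice, against 345 ± 145 CPM in Ccnd2 non-MCL mice and 441 ± 159 CPM in p53-only mice (log2 fold change 0.24 against all non-MCL, adjusted p = 0.63).

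Bcl3, a nuclear IkB protein that can activate transcription with p50 or p52 dimers, was named after its values were seen. It had 37.5, 28.5, 29.8 and 42.2 CPM in MCL-like mice, against 6.31, 0.899 and 7.37 CPM in Ccnd2 non-MCL mice and 1.40 to 44.7 CPM (median 2.5) in p53-only mice. The p53-only mouse of replicates 2 and 5 again stood at the top. With all 13 primary mice in the fit edgeR did not call Bcl3 (log2 fold change 1.92 against all non-MCL primaries, SE 0.80, adjusted p = 0.152), while DESeq2 and limma-voom did in that comparison. Without that p53-only mouse edgeR called it there too. Nfkbiz, another nuclear IkB protein gene, was at 32.9 ± 15.1, 18.1 ± 3.54 and 20.02 ± 10.6 CPM in MCL-like mice, Ccnd2 non-MCL mice and p53-only mice, in that order. The ubiquitin-editing brake gene Tnfaip3, which encodes A20 and is a tumour suppressor of human B cell lymphoma, was at 13.5 ± 10.9, 5.34 ± 3.58 and 12.8 ± 7.43 CPM in these groups. Its partner Tnip1 was at 84.0 ± 2.30 CPM in MCL-like mice, against 52.1 ± 5.80 CPM in Ccnd2 non-MCL mice and 56.7 ± 19.2 CPM in p53-only mice (log2 fold change 0.72 against all non-MCL, SE 0.23, adjusted p = 0.0794), and DESeq2 called it there. The signalling genes Traf1 and Map3k8 had means of 48.8 and 9.77 CPM in MCL-like mice, against 13.1 and 3.95 CPM in Ccnd2 non-MCL mice and 16.4 and 3.04 CPM in p53-only mice, and neither was called by edgeR, DESeq2 or limma-voom.

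Of the 6 surface targets, the adhesion molecule gene Icam1 rose in MCL-like primaries (chromosome 9, 21015985 to 21028817). It measured 61.6, 63.9, 51.0 and 139 CPM in MCL-like replicates 1 to 4, against 53.1, 24.3 and 28.4 CPM in Ccnd2 non-MCL mice and 15.1 to 46.9 CPM (median 23.9) in p53-only mice. MCL-like and p53-only values did not overlap, while Ccnd2 non-MCL replicate 1 lay within the MCL-like range. The log2 fold change was 1.56 against p53-only primaries (SE 0.40, adjusted p = 0.0368), 1.44 against all non-MCL primaries (SE 0.36, adjusted p = 0.0325) and 1.24 against Ccnd2 non-MCL primaries (adjusted p = 0.219). The activation marker gene Cd83 had 112 ± 53.2 CPM in MCL-like mice, against 12.03 ± 16.04 CPM in Ccnd2 non-MCL mice and 54.9 ± 80.9 CPM in p53-only mice, where 2 mice had 146 and 172 CPM and the other 4 had 0.824 to 6.23 CPM. The costimulatory ligand genes Cd86 and Cd80 had means of 33.8 and 7.62 CPM in MCL-like mice, against 7.76 and 0.756 CPM in Ccnd2 non-MCL mice and 13.8 and 1.21 CPM in p53-only mice. DESeq2 called Cd80 against all non-MCL primaries, and edgeR called neither. Slamf1 and Icosl were low and overlapped in every comparison.

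Ebi3, the subunit shared by the cytokines IL-27 and IL-35, had the largest fold change among the called members (chromosome 17, 55952640 to 55957022). MCL-like mice had 112, 81.0, 10.8 and 103 CPM, Ccnd2 non-MCL mice had 0, 3.00 and 26.4 CPM, and p53-only mice had 0.275 to 10.9 CPM with a median of 3.77 CPM. Replicates 1, 2 and 4 were above all 9 non-MCL mice and replicate 3 was not. The log2 fold change was 4.01 against p53-only primaries (SE 1.02, adjusted p = 0.038), 3.64 against all non-MCL primaries (SE 0.86, adjusted p = 0.0293) and 3.10 against Ccnd2 non-MCL primaries (adjusted p = 0.237).

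The other secreted or membrane-bound cytokine targets were low and uneven between MCL-like mice. Ltb, a chain of the lymphotoxin that signals to the non-canonical branch in stroma, had 74.9, 30.4, 12.7 and 22.3 CPM in MCL-like mice, against 9.65, 0.60 and 6.26 CPM in Ccnd2 non-MCL mice and 0 to 19.6 CPM in p53-only mice. Lta was at 4.16 to 22.8 CPM in MCL-like mice, against 0 to 6.31 CPM in Ccnd2 non-MCL mice and 0 to 2.22 CPM in p53-only mice. Tnf was at 0.595 to 30.9 CPM in MCL-like mice, against 0.60 to 6.75 CPM in Ccnd2 non-MCL mice and 0 to 7.01 CPM in p53-only mice. The chemokine genes Ccl3 and Ccl4 had means of 7.55 and 15.5 CPM in MCL-like mice, against 0.327 and 2.19 CPM in Ccnd2 non-MCL mice and 2.73 and 7.94 CPM in p53-only mice. None of these 5 was called by edgeR with all 13 primary mice in the fit, and against all non-MCL primaries their log2 fold changes were 1.38 to 2.88. Some edgeR fits with a mouse or a group left out called Ltb, Lta or Tnf. Ltb and Lta were called by both DESeq2 and limma-voom against all non-MCL primaries. Against p53-only primaries DESeq2 called Ltb, Tnf and Lta, and limma-voom called Lta. Lta and Ccl3 passed the low-count filter only with the MCL-like mice counted.

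Ccl22, a chemokine that draws CCR4-bearing T cells, and Il6 did not pass the low-count filter among the primaries. Ccl22 had 0.892, 14.1, 142 and 1.34 CPM in MCL-like replicates 1 to 4 and at most 1.20 CPM in any of the 9 non-MCL mice. Without a filter its adjusted p was 0.0112 against all non-MCL primaries, with MCL-like replicates 2 and 3 above the rest, and 0.044 against p53-only primaries. Il6 had at most 0.246 CPM in any primary mouse, from 2 counts.

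Survival and stress targets gave no call in edgeR with all 13 primary mice in the fit. Pim1, a survival kinase, was at 372 ± 210 CPM in MCL-like mice, against 250 ± 252 CPM in Ccnd2 non-MCL mice and 114 ± 59.3 CPM in p53-only mice. All MCL-like mice exceeded all p53-only mice, while Ccnd2 non-MCL replicate 1 had 541 CPM (log2 fold change 1.72 against p53-only, SE 0.55, adjusted p = 0.0735). DESeq2 called Pim1 against p53-only primaries, as did edgeR with only these 2 groups in the fit. Gadd45b, a stress response gene, was at 15.3 ± 6.09, 2.71 ± 2.05 and 6.78 ± 6.41 CPM in the 3 groups in that order, and the interferon regulator Irf1 at 297 ± 125, 146 ± 76.8 and 160 ± 90.5 CPM. Cflar, the caspase-8 inhibitor, was at 38.9 ± 10.1, 41.0 ± 11.7 and 40.1 ± 7.73 CPM. The mitochondrial superoxide dismutase gene Sod2 had a lower mean in MCL-like primaries, at 57.5 ± 15.1 CPM, against 62.7 ± 55.8 CPM in Ccnd2 non-MCL mice and 96.7 ± 21.8 CPM in p53-only primaries. The death receptor gene Fas was at 5.45 ± 1.98, 2.05 ± 0.917 and 7.56 ± 12.7 CPM, with 33.1 CPM in the p53-only mouse of replicates 2 and 5.

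**Figure D4:**
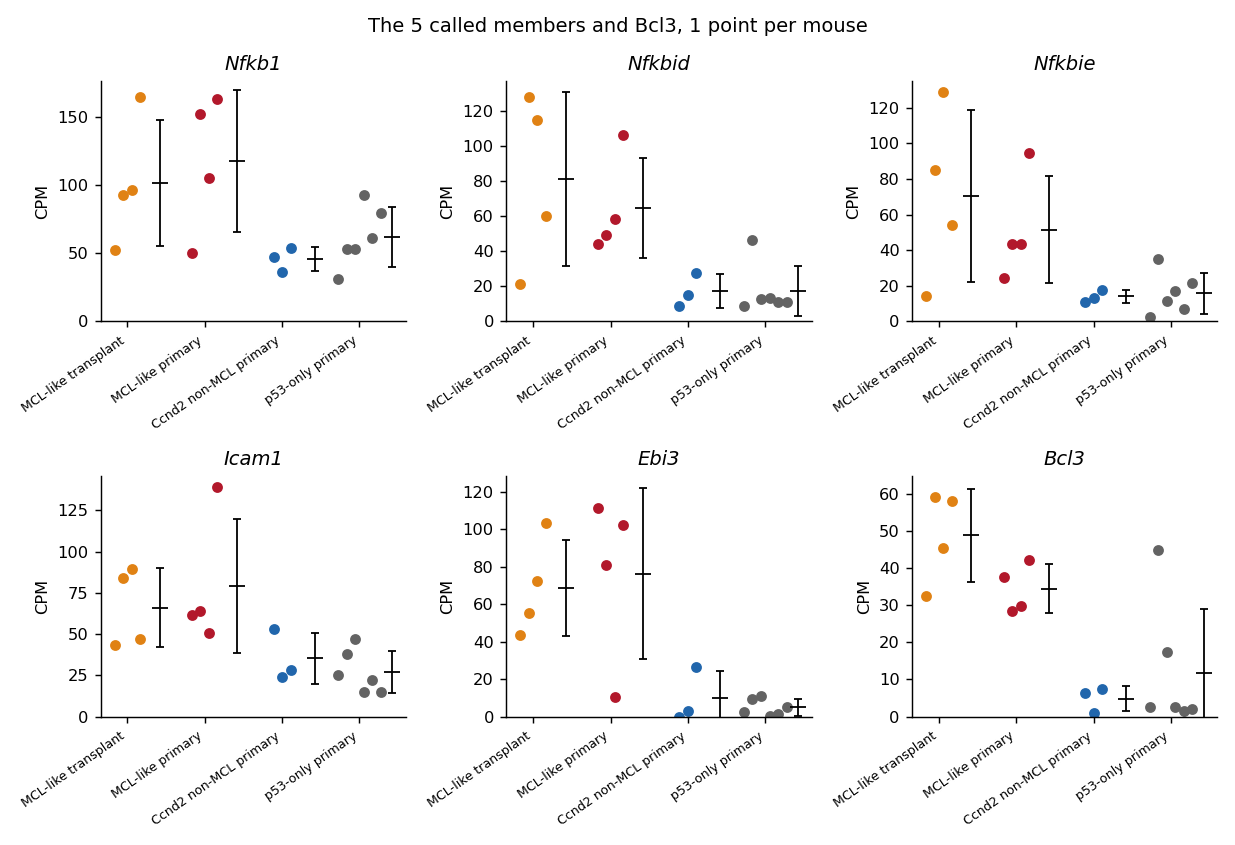
Levels in CPM (vertical axes, from 0) of the 5 called members and of Bcl3, 1 point per mouse, with mean and SD as bars (drawn down to 0 at most), in MCL-like transplants, MCL-like primaries, Ccnd2 non-MCL primaries and p53-only primaries. Nfkbid lies at 44.3 CPM or more in all 4 MCL-like primaries, and 1 p53-only mouse reaches 46.4 CPM.

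Counted over the list, MCL-like tumours against Ccnd2 non-MCL tumours, which share the genotype, gave 0 called members of 36 tested with edgeR, where 0.308% of all 12967 genes were called (0.0617% higher and 0.247% lower). At an unadjusted p under 0.05 there were 12 members, all higher in MCL-like (33.3% of the 36, against 16.8% of all genes). DESeq2 called 3 members, but it also called 847 of all genes, where edgeR called 40. With limma-voom 0 members were called. The estimate was positive for 32 of 36 members, against 47.8% of all genes, and the median log2 fold change was 1.41, against -0.04 over all genes. Lta, Cd80 and Ccl3 passed the low-count filter only with the MCL-like mice counted. Their positive estimates in each comparison with MCL-like primaries were thus favoured by the filter. The same holds for the place of Cd80 and Ccl3 among the 12 members with an unadjusted p under 0.05. For 14 members every MCL-like mouse exceeded every Ccnd2 non-MCL mouse (5.66% of all genes), and for 0 the reverse held (10.5% of all genes). The 14 were Rel, Nfkb2, Relb, Nfkbie, Nfkbid, Nfkbiz, Bcl3, Tnip1, Traf1, Map3k8, Gadd45b, Fas, Cd83 and Ltb. The groups were nearly in touch for Nfkbiz, Fas, Nfkb2, Relb and Map3k8.

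Relative to p53-only tumours, where both the label and the transgene differ, 3 of 36 members (8.33%) were called (Nfkbid, Icam1 and Ebi3, all higher), where 5.81% of all genes were called (2.95% higher and 2.86% lower). The median was 0.99, against -0.11 over all genes, with 29 of 36 members positive. Without overlap, 3 members were higher (Pim1, Icam1 and Lta), against 3.83% of all genes, and 0 were lower, against 7.12% of all genes. Lta entered the test only through the MCL-like mice, so its place among them was favoured by the filter. The 3 calls were lost without MCL-like replicate 2 or 4 or p53-only replicate 4, 6 or 7, each of which left 0 called members. Without MCL-like replicate 1 they were lost too and Nfkb1 alone was called, and without replicate 3 Ebi3 alone was called. Without the p53-only mouse of replicates 2 and 5, 6 members were called, and 5 without Ccnd2 non-MCL replicate 1 or 2, which enter through the shared spread and filter. Calls over all genes moved too, from 753 with all mice to 188 to 1117 with a mouse left out.

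Against all 9 non-MCL mice, 5 of 36 members (13.9%) were called, all higher (Nfkb1, Nfkbie, Nfkbid, Icam1 and Ebi3), where 5.52% of all genes were called (2.84% higher and 2.68% lower). The median was 1.19, against -0.13 over all genes, 31 of 36 members were positive, and for 0 members the groups were fully apart (without overlap, 1.82% of all genes were higher and 2.79% lower). The count was 2, 1, 2 and 0 without MCL-like replicates 1, 2, 3 and 4, 3 without p53-only replicate 6 and 8 without the p53-only mouse of replicates 2 and 5. Calls over all genes moved as well, from 716 with all mice to 176 to 1091 with a mouse left out. The spleen tumours were MCL-like replicates 2, 3 and 4, Ccnd2 non-MCL replicates 2 and 3, and p53-only replicates 1, 2 and 3. Among them alone, 0 members were called in any of these 3 comparisons, and calls over all genes are given further below. Against Ccnd2 non-MCL, p53-only and all non-MCL primaries, 30, 29 and 28 of 37 tested members were positive there. The medians were 1.69, 0.65 and 1.04, against -0.05, -0.03 and -0.11 over all genes.

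Ccnd2 non-MCL against p53-only primaries, 2 non-MCL groups that differ in the transgene, gave 0 called members with edgeR, DESeq2 or limma-voom, and 0 at an unadjusted p under 0.05, where 0.0% of all genes were called by edgeR. Estimates were positive for 10 of 36 members, with a median of -0.39, against -0.04 over all genes. No member separated the groups, where 1.72% of all genes did so as higher and 1.58% as lower. The comparisons among primaries share samples, so their values are not independent of each other.

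**Figure D5:**
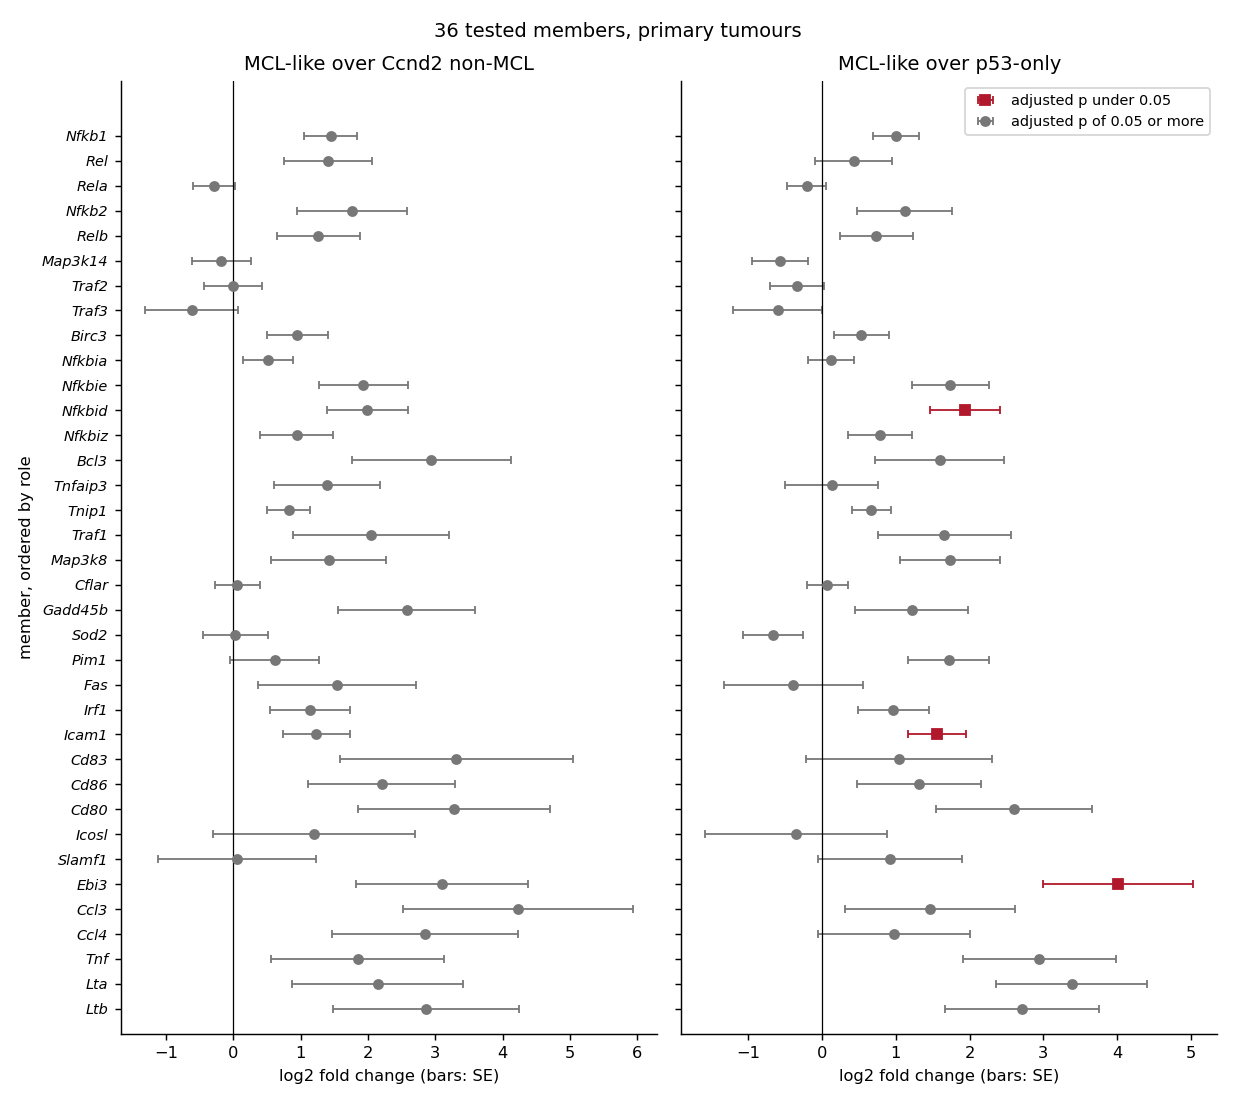
Log2 fold change with SE (horizontal axes) of the 36 tested members in MCL-like primaries over Ccnd2 non-MCL primaries (left) and over p53-only primaries (right). Red squares passed an adjusted p of 0.05 in edgeR's test. Most estimates lie right of 0 in both panels, with the 3 calls in the right panel, and Rela, Map3k14, Traf2 and Traf3 lie left of 0 in both.

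Non-MCL mice were not uniform in these genes. The p53-only mouse of replicates 2 and 5 was the highest of all 13 primary mice for 8 members (Rel, Rela, Relb, Nfkbia, Bcl3, Fas, Icosl and Ccl4) and among the top 4 for 23 of 38. Its library pair had 145 and 177 CPM of Rel and 39.3 and 55.9 CPM of Bcl3, so both libraries were high. By contrast p53-only replicate 1 was lowest for 12 members. Vpreb1, the surrogate light chain of early B cells, was at 3.47 and 5.45 CPM in the libraries of the first mouse and at 4.82 CPM in the second. It was at 2.02 CPM in p53-only replicate 3 and at 458 to 5132 CPM in p53-only replicates 4, 6 and 7. MCL-like replicate 4 was the highest mouse for 11 members, among them Nfkb1, Nfkbid, Nfkbie and Icam1.

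Signalling genes upstream of the members were followed in a list of 39 pathway genes, of which 37 were tested. Against p53-only primaries 6 rose, among them Malt1, Bcl10, Prkcb, Tank and Tlr7, and 1 fell (Traf6), where 5.81% of all genes were called. Against all non-MCL primaries 5 rose, among them Malt1, Bcl10, Tank and Tlr7, and 0 fell, where 5.52% of all genes were called. Against Ccnd2 non-MCL primaries only Malt1 rose, where 0.308% of all genes were called. Malt1, the protease of the complex that carries B cell receptor signals to IKK, was at 164 ± 19.1 CPM in MCL-like mice, against 45.5 ± 11.7 CPM in Ccnd2 non-MCL mice and 29.4 ± 10.3 CPM in p53-only mice. Its log2 fold change against p53-only primaries was 2.56 (SE 0.30, adjusted p = 0.0015). Its binding partner Bcl10 was at 112 ± 18.2 CPM in MCL-like primaries, against 50.3 ± 11.7 CPM in all non-MCL primaries (log2 fold change 1.26, adjusted p = 0.0081). For Malt1, Bcl10, Tank and Tlr7 all 4 MCL-like mice exceeded all 9 non-MCL mice, as was so for 1.82% of all genes.

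Prkcb, a protein kinase C that acts downstream of the B cell receptor, was at 828 ± 440 CPM in MCL-like mice, against 853 ± 245 CPM in Ccnd2 non-MCL mice and 296 ± 105 CPM in p53-only mice. Both primary groups with the transgene thus had the higher means. MCL-like replicate 1 (294 CPM) and its transplants (191 and 350 CPM) lay within the p53-only range of 113 to 394 CPM. The other MCL-like primaries and transplants had 819 CPM or more. The Ccnd2 non-MCL transplants, which also carry the transgene, had 127 and 85.9 CPM. Tank, an adaptor that binds TRAF proteins and TBK1, was at 68.5 ± 20.1 CPM in MCL-like and 23.0 ± 9.67 CPM in all non-MCL primaries (log2 fold change 1.69, adjusted p = 0.0131). Tlr7, a receptor for single-stranded RNA, was at 32.8 ± 20.4 CPM in MCL-like and 5.39 ± 4.25 CPM in all non-MCL primaries (log2 fold change 2.69, adjusted p = 0.0225). Traf6, the ligase that relays Toll-like receptor signals, fell to 11.1 ± 1.98 CPM in MCL-like, against 33.8 ± 16.5 CPM in p53-only primaries (log2 fold change -1.48, adjusted p = 0.0454). Over the 37 tested genes the median log2 fold change against all non-MCL primaries was 0.38, against -0.13 over all genes.

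Transplants were set against the primaries they came from in 3 mice, to see how the members differed after growth in NSG hosts. Blocking on the mouse, edgeR called 0 of 37 tested members, as did DESeq2 and limma-voom, where 0.0% of all 12020 genes were called by edgeR. A single member, Lta, had an unadjusted p under 0.05, with 0.618, 2.13 and 2.52 CPM in the transplants, against 4.16, 7.52 and 4.85 CPM in the primaries of replicates 1, 4 and 2 (log2 fold change -1.66, adjusted p = 0.82). With 3 pairs, a call missed does not show equal levels, and SEs ran from 0.26 for Icam1 to 1.33 for Ccl22. The transplant was below its primary in all 3 pairs for 8 members (Map3k14, Tnfaip3, Tnip1, Cflar, Irf1, Icam1, Ccl4 and Lta), against 16.5% of all genes, and above it for 3 (Relb, Gadd45b and Sod2), against 12.4% of all genes. The T cell marker gene Cd3e was at 0.18 to 15.1 CPM over the 4 transplanted mice and at 2.38 to 34.8 CPM in the 4 primaries, and its part in these differences was not tested.

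By mouse, the transplants had 52.7, 92.8, 96.1 and 165 CPM of Nfkb1, the first from the mouse of primary replicate 1, the second from that of replicate 4, the third from a mouse with no primary library and the fourth from that of replicate 2. In this order Rel was at 30.2, 92.1, 68.7 and 73.7 CPM, and Rela at 72.3, 69.3, 81.4 and 91.1 CPM. Nfkb2 was at 77.4, 45.7, 55.4 and 46.9 CPM, and Relb at 50.1, 47.7, 46.4 and 37.7 CPM. The mouse low in Nfkb1 as a primary was again the lowest, and the same mouse was lowest for Rel and highest for Nfkb2 and Relb. Nfkbid was at 21.3, 128, 115 and 60.4 CPM and Nfkbie at 14.5, 84.9, 129 and 53.9 CPM, with the first mouse lowest for both. Icam1 was at 43.6, 83.7, 89.6 and 46.9 CPM, and Ebi3 at 43.8, 55.6, 72.6 and 103 CPM. Ccl22 was at 0.124, 21.5, 65.4 and 30.7 CPM, so 3 of the 4 mice had 21.5 CPM or more. Whether tumour or host cells made this RNA was not tested.

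The Ccnd2 non-MCL transplants came from 1 mouse, so their values are a description without a test. With both libraries pooled, the 5 members called in MCL-like tumours were below all 4 MCL-like primaries, with Nfkb1 at 44.9 CPM, Nfkbid at 5.06 CPM, Nfkbie at 6.09 CPM, Icam1 at 30.1 CPM and Ebi3 at 1.56 CPM. These 5 were picked for being high in MCL-like primaries, which favours this outcome. Nfkb1 was at 36.5 and 52.9 CPM in the 2 libraries, so 1 of them lay above MCL-like replicate 1 (49.96 CPM). Birc3 was at 110 and 181 CPM in the 2 libraries and Rela at 109 and 162 CPM, and the pooled levels of both exceeded all 13 primary mice. These libraries differed from each other, with Cd83 at 6.35 and 89.97 CPM, Map3k8 at 1.59 and 19.8 CPM and Il6 at 0 and 3.56 CPM.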

How the data were processed

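The deposited table holds raw counts per Ensembl gene, with no normalization. The submitters' processing notes name FastQC, STAR and the build GRCm38. Read counter, strand setting and their versions were not given in the sources used here. Symbols came from GENCODE annotation of GRCm38, matched for 52403 of 52636 identifiers. The mouse was the unit, and libraries of 1 mouse and group were summed. Libraries of different mice are separate animals, while a mouse's own libraries are not replicates. Tests used edgeR 4.0.16 (quasi-likelihood F, TMM scaling, its default low-count filter, robust) in R 4.3.3 on all genes, called at adjusted p under 0.05. SE was taken from the log2 fold change and the root of F. CPM is not TMM-scaled. Transplants were paired by the mouse that the labels name, and deviations of same-mouse pairs correlated at 0.231, 0.243 and 0.359 over 12020 genes. Alternatives used DESeq2 1.42.0, limma 3.58.1 (voom), other scalings and filters, and left-out mice. The fits were tested on simulated data. Members, roles and lists were chosen with earlier results of these data known. Values by mouse are given for the subunits and for called members, and called pathway genes are named, except for 1 that is not reported here. Kappa-B motifs were searched in RefSeq promoters (GRCm38.p6).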

Additional observations from a re-analysis of the deposited data

Results flagged for a closer look

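Each member was searched for a mouse outlying from the rest of its group (Dixon's test at 95% on log2(CPM + 1)) in groups of 4 or more mice. Of 113 groups tested 15 had one, where chance gives about 1 in 20 (5%). The tests share mice and related genes, so they are not independent and the count is no measure of an excess. MCL-like replicate 1 and its transplants account for 8 of the 15. Traf3 was lowest there at 2.08 CPM in the primary and 3.46 CPM in the pooled transplants, against 41.2 to 62.1 CPM and 47.3 to 57.5 CPM in the other mice. The primary was also lowest for Cd86 (11.3 CPM) and Ccl4 (2.97 CPM) and highest for Icosl (11.0 CPM), and its transplants were highest for Birc3 (78.0 CPM) and lowest for Nfkbia (289 CPM) and Cd83 (14.5 CPM). The p53-only mouse of replicates 2 and 5 was highest for Nfkbid at 46.4 CPM, against 8.88 to 13.2 CPM in the other 5. In p53-only replicate 1 Nfkbiz (3.55 CPM) and Irf1 (25.6 CPM) were lowest. In MCL-like replicate 3 Sod2 was highest (80.1 CPM) and Ebi3 lowest (10.8 CPM). Il6 stood out at 0.211 CPM in MCL-like replicate 2 and at 0.172 CPM in MCL-like transplant replicate 5, each a single count.

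In the Ccnd2 non-MCL transplants, which enter no comparison, the pooled level lay above every primary mouse for Rela (136 CPM, against at most 128 CPM), Birc3 (146 CPM, against at most 114 CPM) and Il6 (1.81 CPM, against at most 0.246 CPM).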

How the results depend on the processing

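The fold changes of the 5 called members stayed positive under all alternatives run for them. Against Ccnd2 non-MCL primaries the 0 called members became 3 with DESeq2, 3 with only these 2 groups in the fit and 2 without tumours whose names start with oTP, and 0 to 1 when a mouse was left out. Against p53-only primaries the 3 became 9 with DESeq2, 5 with limma-voom, 5 with only these 2 groups, and 0 both among spleen tumours and without oTP tumours. Leaving out a mouse gave 0 to 6. Against all non-MCL primaries the 5 became 10 with DESeq2, 8 with limma-voom, 2 with the name prefix as a covariate, 3 without oTP tumours and 0 among spleen tumours, and leaving out a mouse gave 0 to 8. The cause was not tested, beyond the fewer samples in some fits. No MCL-like tumour has a name starting with oTP, while Ccnd2 non-MCL replicate 3 and p53-only replicates 4 to 7 do. Those p53-only tumours also came from sites other than spleen, so site and prefix cannot be fully told apart from the label. In the other 2 comparisons the count was 0 under all alternatives, and 0 without the replicate block. Over all genes, calls against all non-MCL primaries were 716, with 37 among spleen tumours and 1750 with DESeq2. Against p53-only they were 753, 35 and 1827, against Ccnd2 non-MCL 40, 116 and 847, and between both non-MCL groups 0, 41 and 119. For transplants they were 0, with 31 with DESeq2 and 35 without a filter. With a mouse left out, calls over all genes were 176 to 1091 against all non-MCL, 188 to 1117 against p53-only and 0 to 54 against Ccnd2 non-MCL. Low members rest on few counts, and intervals between mice are wide.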

Other observations

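In MCL-like replicate 1 the neighbours of Traf3 were read as well, since its level was so low. Of 17 genes within 1 Mb and with at least 10 CPM, 12 (70.6%) lay below all 3 other MCL-like primaries, against 42.6% of all 8793 genes at that level, with a median ratio to their mean of 0.641. Over all these genes the median ratio was 0.797, with 90% of genes between 0.229 and 1.78, while Traf3 was at 0.0403. Among the Traf3 neighbours, Tnfaip2 was at 7.43 CPM in that primary, against 64.8 to 86.5 CPM in the others. Yet in the transplants of that tumour Tnfaip2 was at 79.97 CPM, against 2.34 to 24.6 CPM in the other transplanted mice. In those transplants 8 of the 17 neighbours (47.1%) lay below all 3 other transplanted mice and 5 (29.4%) above, against 40.4% and 30.6% of all genes, while Traf3 stayed below. Birc2, which encodes cIAP1 and lies beside Birc3 on chromosome 9, was at 368 CPM in the same primary, against 65.8 to 131 CPM, and at 192 and 280 CPM in its transplant libraries. These genes were chosen after the values were seen.

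Among pathway genes outside the members, Ikbkb, the catalytic IKK subunit of the canonical branch, was at 922 and 814 CPM in the Ccnd2 non-MCL transplant libraries, against at most 332 CPM in any primary mouse. Birc2 was at 637 and 149 CPM there.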
